A study of Bos taurus with 18 samples.

Results

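Rumen papillae of cows fed alfalfa hay were compared with those of cows fed corn stover. The comparison takes in 12 of the 18 lactating Holstein cows that were sequenced, 6 on each diet, and 13153 of the 24616 genes in the table. A gene was kept when its CPM (the reads of a gene scaled to a fixed total of reads on genes per cow) was over 1 in at least 3 cows of either diet. The AH diet had alfalfa hay with some Chinese wild rye hay as its main forage, and the CS diet had corn stover in the same place. Both diets shared the concentrate mixture and the corn silage, so the comparison asks how gene expression of the papillae differed with the forage. All cows were multiparous, and the RNA came from ventral-sac papillae taken at slaughter after the feeding trial. The third diet, RS, had rice straw as forage and is given only as values beside the others.

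The rumen wall is lined with a stratified squamous epithelium that folds into papillae, through which volatile fatty acids and other products of fermentation are absorbed. Its outer cells harden and flatten into a cornified layer, which is built from keratins and cross-linked envelope proteins and is shed into the rumen. The living layers below make antimicrobial peptides, calcium-binding defence proteins and peroxidases against the dense microbial content. Each papilla also has a core of connective tissue with fibroblasts, vessels and immune cells, so whole-papilla RNA mixes all of these. Of the epithelial markers listed, TGM3 and DSG1 had a paired identifier, and both were detected in all 12 cows.

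The reads on genes ran from 16.099 to 29.595 M per cow, with medians of 20.622 M for AH and 19.611 M for CS. A count of 0 allows a level of up to 0.101 to 0.186 CPM, the worth of 3 reads, which covers counting error only. The first principal component held 40.7% of the variance between cows. On it CS cows 1 and 2 lay at -77.5 and -79.4, apart from the other 10 cows, which lay between -35.8 and 47.2. The second component, with 17.7% of the variance, set AH cow 3 and CS cow 4 apart at -49.0 and -57.6. These 4 cows recur in the results below.

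**Figure D1:**
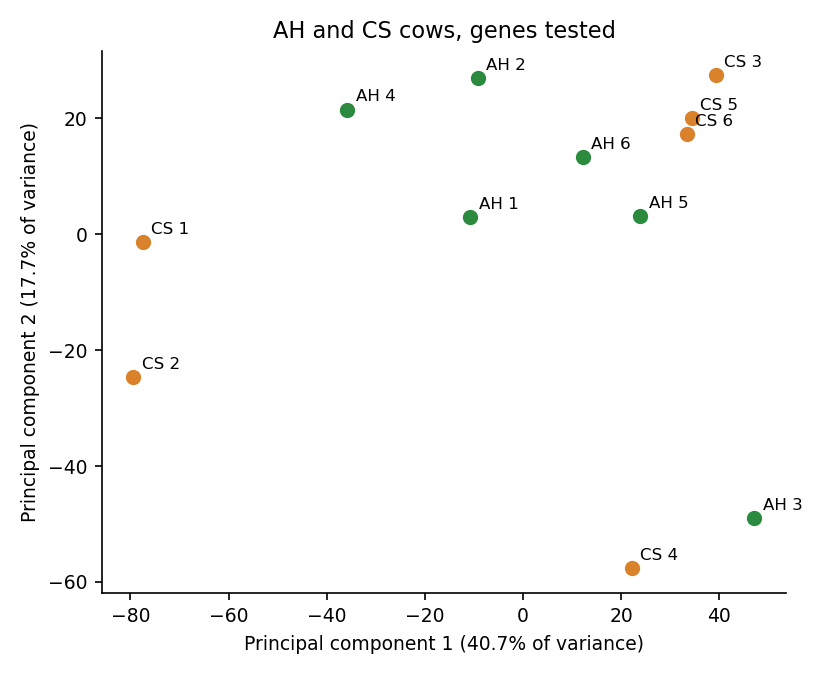
Principal components of log2(CPM + 0.5) over the 13153 genes tested, with 1 point per cow, AH in green and CS in orange. CS 1 and CS 2 stand apart on component 1 (40.7% of the variance), AH 3 and CS 4 on component 2 (17.7%), and the diets do not separate on either.

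Over all genes, the papillae of the diets differed little against the spread between cows. In the limma model of the 12 cows, 0 genes (0.0%) were DE, that is, past an adjusted p of 0.05 with mean CPM over 2-fold apart. The lowest adjusted p was 0.0579, for S100A9. At an unadjusted p under 0.05 there were 214 genes (1.63% of those tested), of which 146 were higher in AH (1.11%) and 68 lower (0.517%). Two-sided exact permutation tests of each gene gave a p under 0.05 for 252 genes (1.92%), with 1.39% of the genes tested higher in AH and 0.525% lower, and the smallest p that 6 against 6 cows allow is 0.0022. By either test the share of genes was below the fraction of 0.05 that falls there on average when diets do not differ. After adjustment over all genes, the exact p was 1 for every gene. With so many genes tested, a p of 0.0022 can pass this adjustment only if a great many genes reach it together. The adjusted exact p therefore could not single out a few genes. On the counts recovered from the CPM, edgeR's quasi-likelihood test called 0 genes, with 283 (2.15%) at an unadjusted p under 0.05. DESeq2 called 8 (0.0608%), of which 1 was higher in AH (0.0076%) and 7 lower (0.0532%), with 377 (2.87%) at an unadjusted p under 0.05. An exact edgeR test with a single dispersion for all genes called 96 (0.73%), and 71 of these have no symbol in the pairs at hand.

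The 2 CS cows that stood apart weighed on these counts. Without CS cows 1 and 2, a choice made after the data had been seen, limma again called 0 genes. However, the genes at an unadjusted p under 0.05 numbered 1122, of which 954 were lower in AH and 168 higher. With TMM-scaled CPM and without the same 2 cows, there were 930 such genes, 522 lower in AH and 408 higher. Leaving out these cows lowered the median log2 ratio of all genes from 0.01 to -0.09 in the deposited CPM, and TMM scaling brought it to 0.01.

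Of the 13153 genes, 196 (1.49%) had mean CPM more than 2-fold apart, 105 higher in AH (0.798%) and 91 lower (0.692%). A ratio of means can rest on 1 cow. Of the 105 higher genes, 25 (23.8%) stayed over 2-fold when each cow was left out in turn, against 40 (44.0%) of the 91 lower genes. In 16 genes (0.122%) the CPM of the AH cows and of the CS cows did not overlap, 11 higher in AH (0.0836%) and 5 lower (0.0380%). The 11 higher genes had modest log2 ratios of 0.31 to 1.10, with a median of 0.77. The 5 lower genes ranged from -4.41 to -0.71, with a median of -1.99. Just 2 of the 16 have a name among the pairs of identifier and symbol at hand, S100A9, which was lower in AH, and EPHX2, which was higher.

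**Figure D2:**
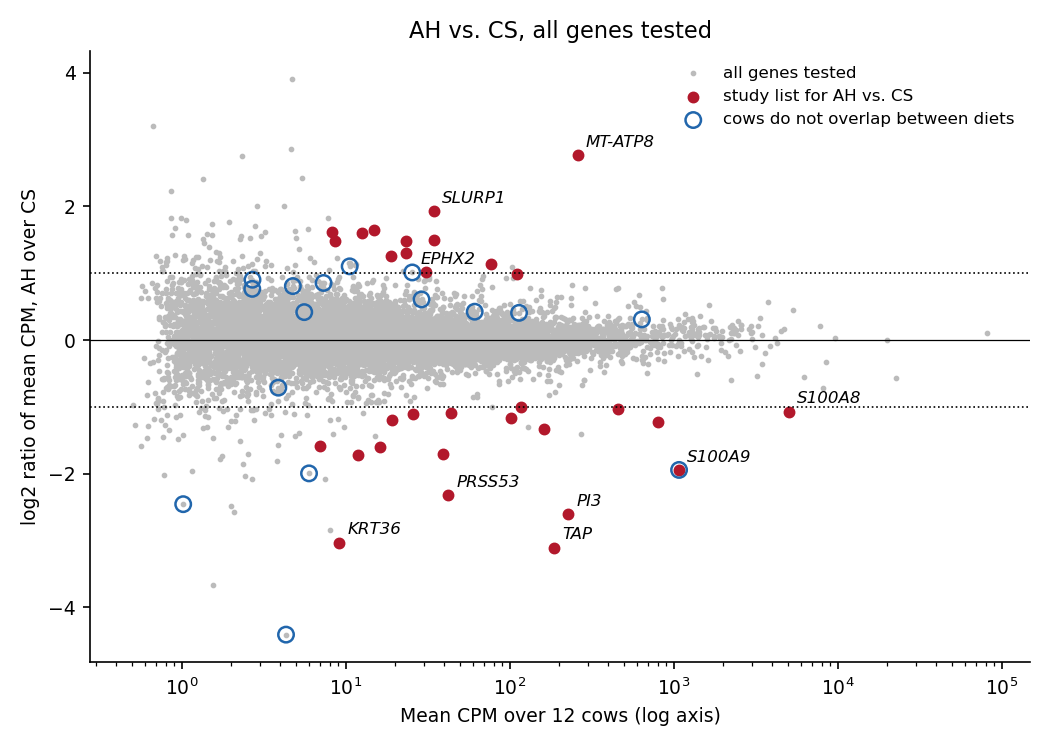
Each point is 1 gene, with its mean CPM over the 12 cows on a log axis against the log2 ratio of mean CPM, AH over CS. Red points are the 31 genes of the study's list, blue rings the 16 genes whose cows do not overlap between diets, and dotted lines 2-fold differences. Most red points carry no ring.

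The study's gene table names 31 genes for AH vs. CS, chosen there on these same cows, so their direction is not independent evidence. Of them 13 were higher in AH and 18 lower, and all but ARG1 were more than 2-fold apart. In limma 14 of the 31 had an unadjusted p under 0.05, 3 higher and 11 lower, where the shares over all genes were 1.63%, 1.11% and 0.517%. By the exact permutation test 7 had a p under 0.05 (0.525% of all genes in this direction), all lower in AH, namely TAP, PI3, PRSS53, S100A9, SLC6A14, AIF1 and S100A8. When each cow was left out in turn, 24 of the 31 kept their sign and 8 (25.8%) stayed over 2-fold. These 8 were TAP, PI3, PRSS53, S100A9, SLC6A14 and LAP, which were lower, and PADI1 and SLURP1, which were higher. Over all genes 0.494% stayed over 2-fold, but most genes were never that far apart. Of the 196 genes that began over 2-fold, 65 (33.2%) stayed so, a larger share than in the study's list. Below 0.05 lay 79 of these 196 by unadjusted limma p and 57 by exact permutation, beside 14 and 7 of the 31. In 6 of the 31 genes the median cows differed in the opposite direction to the mean CPM.

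**Figure D3:**
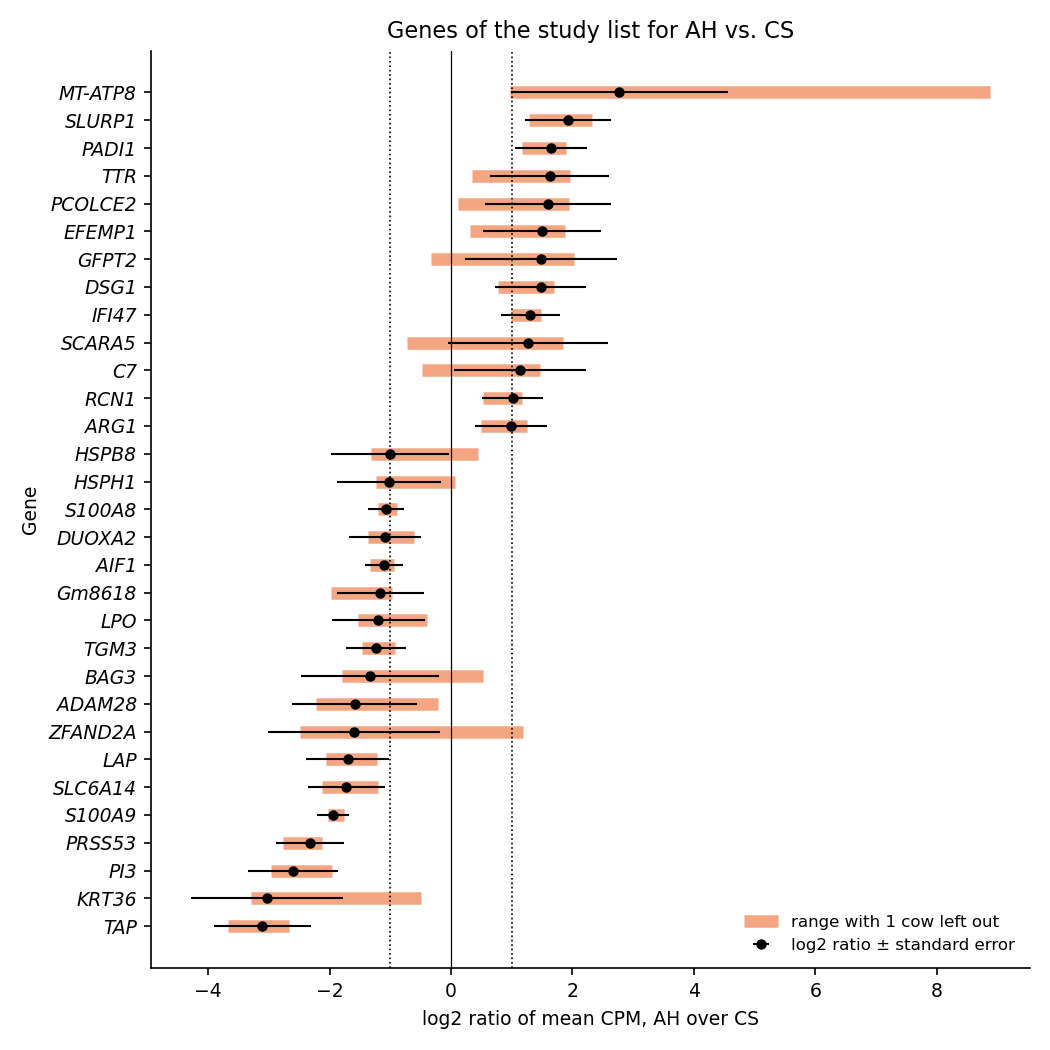
Log2 ratio of mean CPM, AH over CS, of the 31 listed genes. Black points with bars are the ratio ± standard error (n = 6 and 6), orange bars the range when 1 cow at a time is left out, and dotted lines 2-fold differences. For 7 genes, ZFAND2A, BAG3, HSPH1, HSPB8, C7, SCARA5 and GFPT2, the orange bar crosses 0.

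S100A9, the gene with the lowest limma p, belongs to calprotectin, the pair of calcium-binding proteins S100A8 and S100A9 that withholds zinc and manganese from microbes. S100A9 (ENSBTAG00000006505) ran from 161 through a median of 464 to 575 CPM in AH and from 1249 through 1467 to 2419.8 CPM in CS. Every CS cow had more than 2 times the CPM of the highest AH cow, with the lowest value in AH cow 4. Mean CPM was 3.84-fold higher in CS, a log2 ratio of -1.94 ± 0.26 (SE), with an exact permutation p of 0.0022 and a limma adjusted p of 0.0579. The call depended on the cows in the model. With the RS cows added to the estimate of the spread the limma adjusted p was 0.0062, and S100A9 was then the 1 DE gene (0.0076%). Without AH cow 4 it was 0.0072 and S100A9 was again DE, while leaving out any other single cow gave 0.0870 to 0.224. DESeq2 gave it an adjusted p of 1.7e-07.

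S100A8 (ENSBTAG00000012640), its partner, stood at 2052, 2868 and 4575 CPM for the lowest, median and highest AH cow and at 4379.9, 6138 and 10792 CPM in CS. The diets overlapped in a narrow band, where 2 CS cows fell within the AH range. Its log2 ratio was -1.07 ± 0.29 with an exact permutation p of 0.0108, and it stayed between -1.20 and -0.89 when single cows were left out. Without CS cows 1 and 2 it was -0.71. In the RS cows S100A8 ran from 4800.3 to 10358 CPM and S100A9 from 1131 to 2167 CPM. The RS ranges thus lay beside those of CS and above the highest AH cow for both genes. Neutrophils are another known source of calprotectin, and none of the 4 neutrophil markers listed had a paired identifier, so their part in the result was not tested.

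Of the 14 symbols in the antimicrobial list, 5 had a paired identifier, and these 5 had lower mean CPM in AH. Their median log2 ratio was -1.70 beside 0.01 over all genes. TAP and LAP encode the tracheal and lingual antimicrobial peptides, 2 bovine beta-defensins, LPO encodes lactoperoxidase, and DUOXA2 is the maturation factor of an oxidase that makes hydrogen peroxide. The other, PI3, encodes elafin, an inhibitor of neutrophil elastase. All 5 had been listed by the study as lower in AH on these same cows, so their shared direction is not independent evidence. Of them 4 had an unadjusted limma p under 0.05 (0.517% of all genes tested were below it and lower in AH). By the exact permutation test 2 had a p under 0.05 (0.525%).

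TAP (ENSBTAG00000048171) ran from 1.51 through 29.7 to 102 CPM in AH and from 95.9 through 194 to 770.2 CPM in CS. The CS cows in the AH range were 2 of 6, both just under AH cow 1. Mean CPM was 8.61-fold higher in CS, a log2 ratio of -3.11 ± 0.80, with an exact permutation p of 0.0065. PI3 (ENSBTAG00000039028) stood at 10.4, 47.8 and 135 CPM in AH and at 23.4, 288 and 1093 CPM in CS. Its highest value was in CS cow 5, and CS cow 1, at the bottom of its group, lay below the AH median. The log2 ratio of PI3 was -2.61 ± 0.74 with an exact permutation p of 0.0433, and -1.97 without CS cow 5.

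LAP (ENSBTAG00000027225) spread more widely, at 0.229, 20.6 and 39.2 CPM in AH and 9.64, 38.1 and 145 CPM in CS. Of the CS cows 3 lay within the AH range, and the log2 ratio of -1.70 ± 0.68 had an exact permutation p of 0.0866. Without CS cow 4, the highest, it was -1.22. LPO ran from 3.17 through 10.6 to 24.1 CPM in AH and from 3.69 through 18.9 to 84.2 CPM in CS. CS cow 5 alone held that maximum, and without it the log2 ratio of LPO went from -1.20 to -0.39. DUOXA2 had medians of 24.4 CPM in AH and 45.0 CPM in CS, a log2 ratio of -1.09 ± 0.59 and an exact permutation p of 0.0736. TAP and LAP are members of a family of similar genes, and reads that fit several places had been removed, so their levels are uncertain.

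Summed over the 5 genes, AH cow 4 was the lowest at 27.0 CPM and AH cow 1 the highest of its diet at 312 CPM, against 242 to 1502 CPM in CS. AH cow 4 was the lowest of the 12 cows in 4 of the 5 genes. The lowest CS sum, in CS cow 1, lay below the 2 highest AH sums, 252 and 312 CPM, so the sums overlapped at that edge.

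Of the 24 symbols in the cornification and cell adhesion list, 8 had a paired identifier, and these did not share a direction. Of the 8, 4 had lower and 4 higher mean CPM in AH, each by more than 2-fold, and the median log2 ratio was -0.02. As 7 of the 8 had been listed by the study for AH vs. CS, this split does not describe the rest of the list. Those with lower values were PRSS53, a serine protease known from the inner root sheath of hair, TGM3, a transglutaminase that cross-links envelope proteins, the hair keratin KRT36, and Gm8618. Those with higher values were PADI1, which converts arginine to citrulline in keratins and filaggrin, the desmosomal cadherin DSG1, the secreted keratinocyte protein SLURP1, and TPRG1.

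PRSS53 (ENSBTAG00000031551) ran from 4.36 through 8.55 to 32.8 CPM in AH and from 23.8 through 76.8 to 110.4 CPM in CS. A single CS cow, number 1, fell within the AH range. The log2 ratio of -2.32 ± 0.56 kept between -2.76 and -2.13 when single cows were left out, with an exact permutation p of 0.0065 and a limma adjusted p of 0.610. DESeq2 called it, with an adjusted p of 0.0040. TGM3 stood at 133, 466.4 and 834 CPM in AH and 247, 1069 and 2167 CPM in CS. Its 3 highest values were all in CS, but 3 other CS cows lay within the AH range, and the exact permutation p was 0.0866. Without CS cows 1 and 2 its log2 ratio went from -1.23 to -1.57.

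KRT36 showed how far a single cow can carry a mean. It stood at 0.688, 1.92 and 3.61 CPM in AH and 0.373, 1.73 and 83.4 CPM in CS. CS cow 5 held 85.6% of the summed CPM of its diet, where an equal share is 16.7%. The log2 ratio of KRT36 was -3.03 ± 1.25 with this cow and -0.50 without it, and the log2 ratio of the medians was 0.15. Gm8618 had medians of 39.7 CPM in AH and 155 CPM in CS, but AH cow 5 at 198 CPM lay among the high CS cows, and the exact permutation p was 0.115. Without AH cow 5 the log2 ratio of Gm8618 went from -1.16 to -1.97.

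Among the 4 genes with higher values, SLURP1 (ENSBTAG00000016209) ran from 8.35 through 41.6 to 153 CPM in AH and from 3.84 through 13.7 to 31.6 CPM in CS. The 4 highest cows were all on AH, and the other 2 AH cows lay among the CS cows. SLURP1 had a log2 ratio of 1.93 ± 0.70 with an exact permutation p of 0.0628, and of 1.28 without AH cow 6. PADI1 stood at 2.09, 14.4 and 53.9 CPM in AH and at 3.04, 8.18 and 10.1 CPM in CS. All CS cows lay within the AH range, and the log2 ratio of 1.65 ± 0.59 had an exact permutation p of 0.160. DSG1 had nearly the same median in both diets, 11.6 CPM in AH and 11.3 CPM in CS. Its log2 ratio of 1.48 ± 0.75 came from AH cows 6 and 2, at 101 and 68.5 CPM, and was 0.77 without AH cow 6. The paper reports DSG1 lower in CS than in AH by quantitative PCR. The highest of the 12 cows for SLURP1, PADI1, DSG1 and TPRG1 was AH cow 6 in each case. For KRT36, PRSS53, TGM3 and Gm8618 it was CS cow 5.

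**Figure D4:**
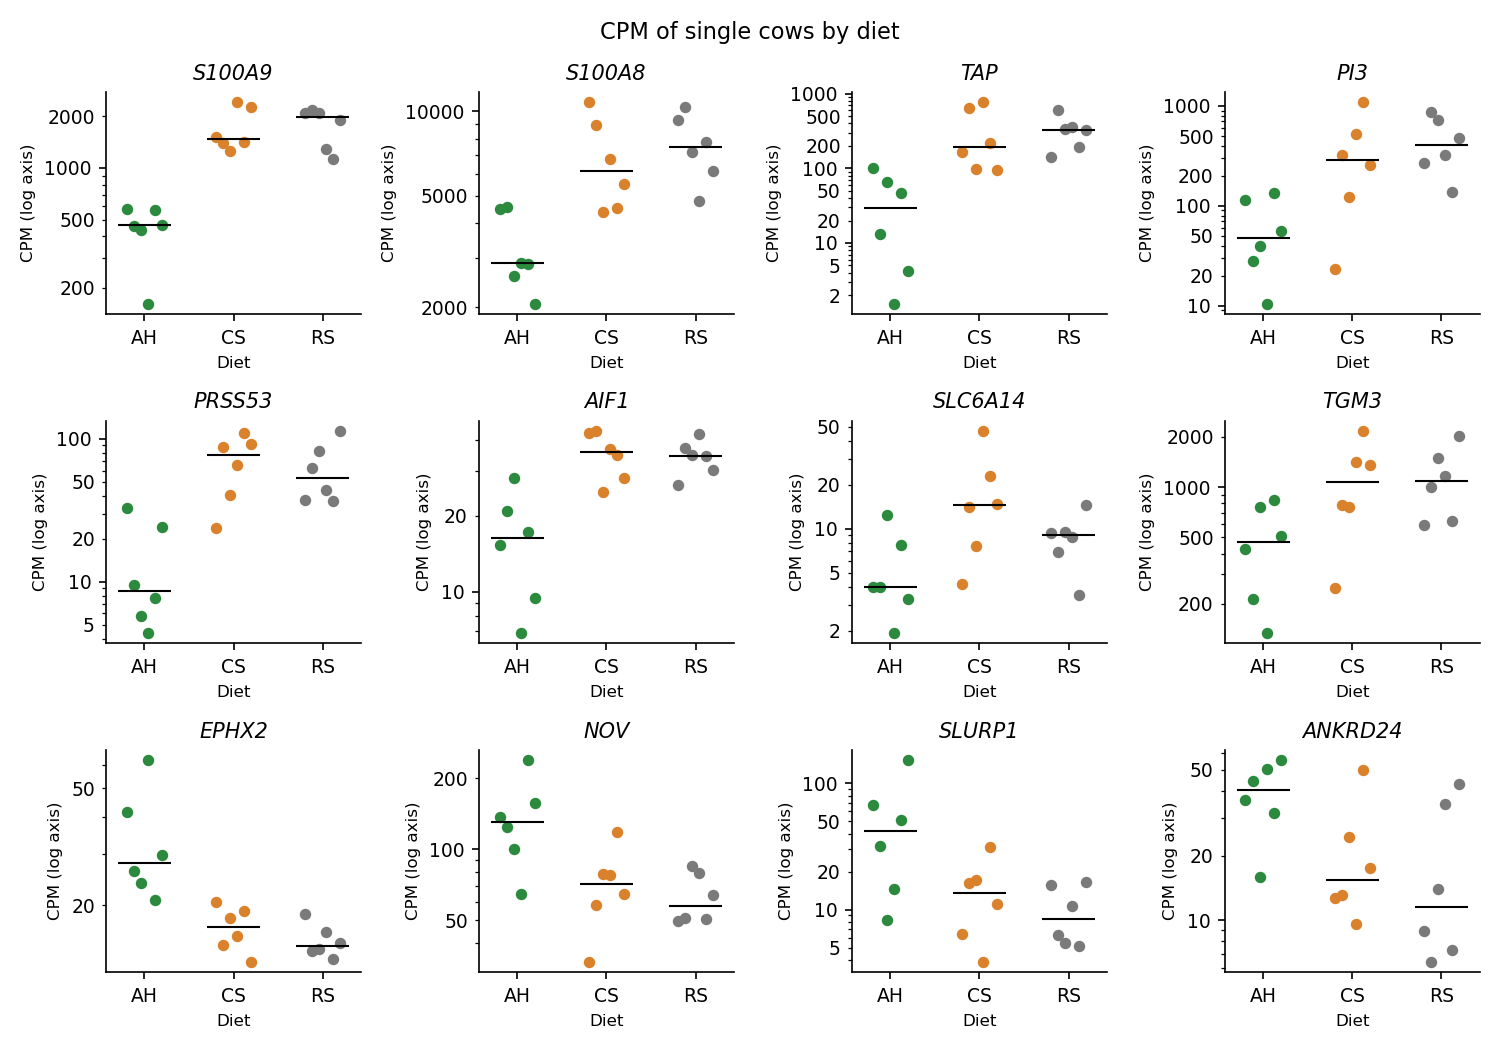
CPM of 12 genes on log axes, with 1 point per cow (6 per diet) and the median as a line, for AH in green, CS in orange and RS in grey. S100A9 and EPHX2 separate AH from CS without overlap, with S100A9 lower and EPHX2 higher in AH. The other genes overlap.

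SLC6A14, a transporter that brings neutral and cationic amino acids into epithelial cells, ran from 1.93 through 3.99 to 12.3 CPM in AH and from 4.19 through 14.4 to 46.5 CPM in CS. AH cow 3 was the highest of its diet and near the CS median, and 2 CS cows lay within the AH range. SLC6A14 had a log2 ratio of -1.72 ± 0.64 with an exact permutation p of 0.0238, and of -1.19 without CS cow 4, the highest.

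Immune genes differed from one another. AIF1 (ENSBTAG00000020554), a marker of macrophages, stood at 6.84, 16.3 and 28.2 CPM in AH and 24.8, 35.8 and 43.4 CPM in CS. The overlap was small, with AH cow 3 above the lowest 2 CS cows. Its log2 ratio was -1.10 ± 0.31 with an exact permutation p of 0.0065. In whole papillae, fewer cells of a type and less RNA per cell cannot be told apart. The other 2 genes of the macrophage list with a paired identifier had higher mean CPM in AH, with AH cow 3 as the highest cow. CD5L had a log2 ratio of 0.13 ± 1.46 and Cd209f one of 1.12 ± 1.23, and without AH cow 3 they were -3.24 and -1.0. The median cow was lower in AH for both, with log2 ratios of the medians of -2.42 and -0.59.

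ADAM28, a membrane metalloprotease, had medians of 2.40 CPM in AH and 4.36 CPM in CS. CS cow 6 at 42.9 CPM held 68.0% of the CS sum, and without it the log2 ratio went from -1.59 to -0.21. Without AH cow 3 it was -2.22. IFI47, an interferon-induced GTPase, ran from 13.1 through 29.4 to 65.7 CPM in AH and from 0.0551 through 14.8 to 21.4 CPM in CS. The value of CS cow 1 is that of 1 read, and 3 AH cows lay above all CS cows. The log2 ratio of 1.31 ± 0.49 had an exact permutation p of 0.0563. The class II genes HLA-DQA1 and HLA-DQB1 had log2 ratios of 0.30 ± 1.26 and 0.53 ± 0.42, with exact permutation p of 0.931 and 0.119, and their counts are uncertain because of near-identical copies. The log2 ratio of HLA-DQA1 was -0.62 without AH cow 3 and 1.91 without CS cow 6.

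The 4 heat shock genes that the study lists for AH vs. CS were lower in AH by mean CPM, yet this was the value of 1 cow. HSPB8 is a small heat shock protein that works with the co-chaperone BAG3, HSPH1 is a large chaperone of the HSP110 family, and ZFAND2A is a stress-induced zinc finger protein. BAG3 stood at 35.6, 76.7 and 221 CPM in AH and at 37.1, 57.8 and 1077 CPM in CS. CS cow 2 held the maximum, far above the next CS cow, while the median cow was higher in AH. Without CS cow 2 the log2 ratio of BAG3 turned from -1.33 to 0.53. By quantitative PCR the paper reports HSPB8 higher in CS than in AH, with a tendency the same way for BAG3. Whether CS cow 2 carried that difference was not tested.

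The other 3 listed genes went the same way. Without CS cow 2 the log2 ratio of ZFAND2A turned from -1.60 to 1.18, that of HSPB8 from -1.0 to 0.45 and that of HSPH1 from -1.02 to 0.06. Exact permutation p for the 4 genes lay between 0.634 and 0.816. HSPA1A, the inducible HSP70 gene, which has a near-identical copy, ran from 348 to 1766 CPM in AH and from 262 to 6199 CPM in CS, again with CS cow 2 highest, and its log2 ratio went from -0.50 to 0.70 without that cow. Of the 6 heat shock genes with a paired identifier, 5 had lower mean CPM in AH. DNAJA1 went the other way, with a log2 ratio of 0.49 and its highest value, 96.4 CPM, in AH cow 2. Summed over these 6 genes, CS cow 2 had 10319 CPM, and the next CS cow had 1546 CPM. None of the 6 genes had an unadjusted p under 0.05 in limma, beside 1.63% of all genes. In RS, 1 cow also stood far from its group, at 13153 CPM against 1432 CPM for the next.

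Of the 20 symbols in the fibroblast and matrix list, 14 had a paired identifier. All 14 had higher mean CPM in AH, with a median log2 ratio of 0.97, and 7 were over 2-fold. The study had listed each of these genes for a comparison that included AH or CS cows, so their shared direction is not independent evidence. They include EFEMP1 and FBN1 of elastic fibres and microfibrils, PCOLCE2, which aids the cutting of procollagen, MGP, which holds back mineral, and SCARA5, a ferritin receptor of stromal cells. In every one of the 14 genes AH cow 3 was the highest of the 12 cows. Only RCN1, a calcium-binding protein of the endoplasmic reticulum, had an unadjusted limma p under 0.05. Over all genes, 1.11% had such a p and were higher in AH. By the exact permutation test 0 of the 14 had a p under 0.05, beside 1.39% of all genes in this direction. Without AH cow 3 the median log2 ratio of the 14 genes was -0.08.

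EFEMP1 stood at 3.90, 17.4 and 193 CPM in AH and at 3.73, 12.4 and 38.4 CPM in CS. SCARA5 stood at 1.07, 4.56 and 126 CPM in AH and at 0.683, 2.97 and 29.5 CPM in CS. The complement gene C7, known from stromal cells, stood at 4.54, 41.3 and 458 CPM in AH and at 3.20, 49.8 and 97.9 CPM in CS. In each of these genes AH cow 3 held the maximum, and 5 of 6 CS cows lay within the AH range. Leaving out AH cow 3 moved the log2 ratio of EFEMP1 from 1.5 to 0.32, that of PCOLCE2 from 1.60 to 0.11 and that of GFPT2 from 1.48 to -0.33. For SCARA5 it went from 1.26 to -0.72 and for C7 from 1.13 to -0.48.

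Low values also gathered in a few cows. The lowest of the 12 cows was AH cow 4 in 5 of the 14 genes, CS cow 1 in 4 and CS cow 2 in 3. The sum over the 14 genes ran from 146 through 583 to 2838 CPM in AH and from 205 through 432 to 899 CPM in CS. The second highest AH cow had 919.8 CPM, beside the highest CS cow, so apart from AH cow 3 the diets overlapped over nearly the whole range.

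**Figure D5:**
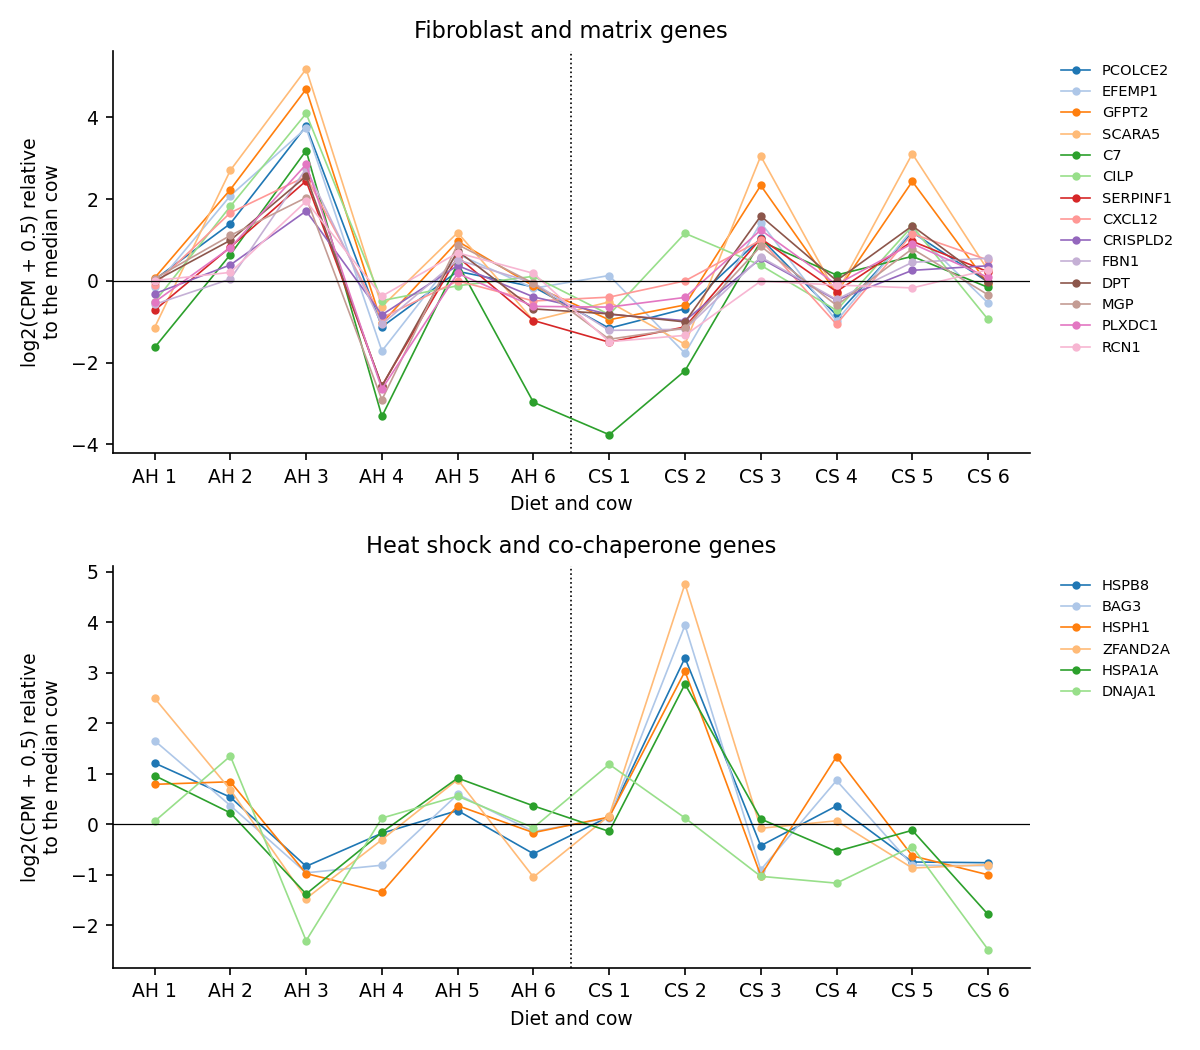
Log2(CPM + 0.5) of each gene relative to its median over the 12 cows, for 14 fibroblast and matrix genes (top) and 6 heat shock and co-chaperone genes (bottom), with 1 line per gene and 1 position per cow. AH 3 is highest in all 14 matrix genes, and CS 2 is highest in 5 of the 6 heat shock genes.

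Of the 15 symbols in the complement list, 6 had a paired identifier. AH cow 3 was the highest cow in all 6 genes and AH cow 4 the lowest in 5 of them. C3 had a log2 ratio of 0.66 ± 0.90 and the alternative pathway gene CFB one of -0.61 ± 0.48. Without AH cow 3 they were -0.71 and -1.10, and the median of the 6 genes went from 0.85 to -0.83. None of the 6 had an exact permutation p under 0.05, beside 1.92% of all genes.

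Genes of nitrogen handling and of plasma proteins had wide spreads. ARG1, the arginase that releases urea from arginine, ran from 29.1 through 122 to 359 CPM in AH and from 11.4 through 75.3 to 135 CPM in CS. AH cow 6 was the highest, 5 CS cows lay within the AH range, and the log2 ratio of 0.99 ± 0.60 had an exact permutation p of 0.199. The urea transporter gene SLC14A1 had medians of 783 CPM in AH and 561 CPM in CS and an exact permutation p of 0.249. TTR, the carrier of thyroid hormone, had medians of 6.45 and 2.72 CPM. AH cow 5 at 49.0 CPM held 65.6% of the AH sum, and without it the log2 ratio of TTR went from 1.62 to 0.35.

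MT-ATP8, a mitochondrial gene for a subunit of ATP synthase, was split by cow rather than by diet. AH cows 5 and 6 had 641 and 2065 CPM and CS cow 3 had 393 CPM, while each of the other 9 cows had under 4 CPM. The log2 ratio was 2.77 ± 1.79, and it was 0.97 without AH cow 6 and 8.87 without CS cow 3. In RS the values ran from 0.550 to 1161 CPM. The gene overlaps MT-ATP6, so reads shared by both could not be assigned.

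Of the 42 genes in the study's table that it lists for other comparisons, 33 had higher and 9 lower mean CPM in AH, with a median log2 ratio of 0.65, which was 0.066 without AH cow 3. The study chose these genes in comparisons that share the AH or the CS cows, so their direction is not independent evidence. For 3 of them the exact permutation p was under 0.05, all higher in AH, a direction and p that 1.39% of all genes had. Of the 42 genes 9 were over 2-fold apart, all higher in AH, and 0 stayed so when each cow was left out in turn.

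EPHX2 (ENSBTAG00000015241), the soluble epoxide hydrolase that turns fatty acid epoxides into diols, ran from 20.8 through 27.9 to 62.2 CPM in AH and from 12.8 through 16.9 to 20.6 CPM in CS. No AH cow fell within the CS range, though the lowest AH cow, number 5, and the highest CS cow, number 1, nearly met. This separation holds in the deposited CPM only. The TMM factors of these cows, by which CPM are divided, were 1.04 and 0.847. In TMM-scaled CPM CS cow 1 lay above AH cow 5, and the diets overlapped. The log2 ratio was 1.01 ± 0.29, with an exact permutation p of 0.0022 and a limma adjusted p of 1.00. In RS EPHX2 ran from 13.2 to 18.8 CPM, beside the CS cows.

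NOV, a matricellular protein of the CCN family, stood at 64.8, 131 and 238 CPM in AH and at 33.2, 71.0 and 118 CPM in CS. The 4 highest cows were on AH, and 3 CS cows lay within the AH range. The log2 ratio of NOV was 0.93 ± 0.34 with an exact permutation p of 0.0281. ANKRD24 had medians of 40.3 CPM in AH and 15.4 CPM in CS, with AH cow 3 low in its diet and CS cow 5 high. Its exact permutation p was 0.0476, and 0.0649 with rank sums or with untransformed CPM.

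Of the 7 symbols in the growth-signal list, 5 had a paired identifier, CYR61, NOV, IGFBP3, APOLD1 and ID1. Only NOV had an exact permutation p under 0.05, a p and direction that 1.39% of all genes had. All 5 had higher mean CPM in AH. Their median log2 ratio was 0.91. In 4 of the 5 AH cow 5 was the highest of the 12 cows, and without it CYR61 went from 0.97 to 0.47. PDK4, a kinase that turns down the use of pyruvate for the citric acid cycle, had medians of 125 CPM in AH and 47.6 CPM in CS. Its log2 ratio was 1.09 ± 0.56 with an exact permutation p of 0.0714.

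Several of the best separated genes have no symbol in the pairs at hand. ENSBTAG00000013578 was scarcely detected in AH, at 0, 0.256 and 1.13 CPM for the lowest, median and highest cow, and ran from 1.40 through 4.33 to 26.8 CPM in CS. The diets did not overlap, although the highest AH cow and the lowest CS cow were close. The ratio of means was -4.41 ± 0.92 on the log2 scale, with an exact permutation p of 0.0022, a limma adjusted p of 0.610 and a DESeq2 adjusted p of 1.9e-05. Without CS cow 4 it was -3.54 and without AH cow 1 -5.09. ENSBTAG00000046375 was also lower in every AH cow, at 1.83 to 4.02 CPM against 4.13 to 23.0 CPM, with a log2 ratio of -1.99 ± 0.50.

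ENSBTAG00000016061 was higher in every AH cow, at 10.8, 14.2 and 19.5 CPM against 5.47, 6.54 and 8.57 CPM in CS. Its log2 ratio of 1.10 ± 0.17 varied little, from 1.00 to 1.19, when single cows were left out. The limma adjusted p was 0.895, and DESeq2 called it with an adjusted p of 0.028. ENSBTAG00000010738 stood at 6.59 to 11.4 CPM in AH and at 3.70 to 6.28 CPM in CS, a log2 ratio of 0.85 ± 0.15 with an exact permutation p of 0.0022.

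Single cows recurred over the whole list of 31 genes. Among the 18 genes lower in AH, AH cow 4 was the lowest of the 12 cows in 10 and AH cow 3 in 5, while CS cows 2 and 5 were the highest in 6 each and CS cow 4 in 4. Among the 13 genes higher in AH, AH cow 3 was the highest in 7 and AH cow 6 in 5, and CS cow 1 was the lowest in 6. The top cow of a diet held a median of 40% of the summed CPM in AH and 36.6% in CS for these 31 genes. Over all genes tested, the same medians were 23.3% and 23.9%.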

How the data were processed

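RNA of rumen papillae from 12 cows (6 AH, 6 CS) was used, grouped by the diet in the labels. The authors used TopHat2 to place paired-end reads on UMD3.1, the bovine assembly, dropped reads with several hits, counted reads on Ensembl genes with HTSeq and deposited CPM per cow, scaled to the total on annotated genes. The labels' extraction text speaks of rectal tissue and a total RNA kit, and the paper of rumen papillae and an mRNA kit. The paper's account was followed. The CPM were whole multiples of 1 read for 100.0% of values (tolerance 0.02), which gave the counts used by edgeR 4.0.16 and DESeq2 1.42.0. The first main test was limma 3.58.1 in R 4.3.3 on log2(CPM + 0.5) with an intensity trend over the 12 cows. That scale understates changes of genes with few reads. The second was a two-sided exact permutation test of the mean difference on the same scale, computed with numpy 2.4.6. Both tests had Benjamini-Hochberg adjustment. Log2 ratios are of arithmetic mean CPM, with a standard error (SE) from the spread of the cows. Within-diet pairs of cows differed beyond sampling noise (chi-square per degree of freedom 44.5 to 352 over 30 pairs). P-values set the difference between diets against the spread between these cows.

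Symbols came from 73 pairs in the study's gene table, and 73 of 223 symbols in the 26 gene lists could be matched. Each matched member had thus been listed by the study for a comparison that included AH or CS cows. Counts of matched members therefore do not describe the whole lists. Members and lists were chosen with earlier results of these data known. Genes named are those listed by the study for AH vs. CS, others of its table by exact p or lack of overlap, genes called DE by limma, edgeR's quasi-likelihood test or DESeq2, non-overlapping genes with mean CPM over 5, and examples from the lists. Identifiers without a symbol are printed for at most 2 per direction. Alternatives changed the pseudocount, filter, scaling, variance model, cows and tool. No batch is named in the labels.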

Additional observations from a re-analysis of the deposited data

Results flagged for a closer look

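Within each diet of 6 cows, the cow at one end of the range was compared with the rest by its gap to the nearest cow divided by the whole range, where 0.625 is the 95% critical value. Of 100 groups tested (50 genes in each diet), 32 had a cow beyond it, in 31 as the highest cow. Chance marks about 1 in 20 groups when values are normally distributed, which CPM are not, so that rate is no measure of this count. On log2(CPM + 0.5), a scale chosen after seeing the data, 8 of the 100 groups had a cow beyond it. The genes had in part been listed by the study for their differences on these cows, and no cause of the extreme values was tested.

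AH cow 3 was extreme and highest in 12 groups. The gap share was 0.728 for RCN1, 0.838 for C7, 0.831 for SCARA5, 0.834 for GFPT2, 0.698 for EFEMP1, 0.837 for PCOLCE2 and 0.706 for ADAM28. The first 6 of these belong to the fibroblast and matrix list. The other 5 were CFB (0.766), CD5L (0.948), C3 (0.882), Cd209f (0.909) and CR2 (0.933), of the complement, macrophage and B lineage lists.

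CS cow 2 was extreme in 6 groups, with 0.978 for ZFAND2A, 0.913 for BAG3, 0.735 for HSPH1, 0.924 for HSPB8, 0.880 for HSPA1A and 0.639 for DUOXA2. The first 4 are all the heat shock genes that the study lists for AH vs. CS. In ZFAND2A, AH cow 1 was also extreme in its diet, at 0.718.

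CS cow 5 stood apart in KRT36 (0.891), LPO (0.734) and ANKRD24 (0.633). AH cow 5 did so in Gm8618 (0.919) and TTR (0.857), CS cow 6 in ADAM28 (0.930) and HLA-DQA1 (0.771), and CS cow 4 in PDK4 (0.639). For MT-ATP8 the gap share was 0.690 for AH cow 6 and 0.998 for CS cow 3.

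S100A9 had a low cow instead. AH cow 4 at 161 CPM gave a gap share of 0.665, and the other 5 AH cows lay between 436 and 575 CPM. Of the genes without a symbol, ENSBTAG00000013578 had CS cow 4 apart (0.638) and ENSBTAG00000046375 had AH cow 2 apart (0.652), in both cases as the highest cow of the diet.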

How the results depend on the processing

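A count of 0 allows up to 0.101 to 0.186 CPM, so values of the genes nearest that level are the least precise. Limma again called 0 genes with other pseudocounts, filters, scalings and variance models, with voom, with the replicate block and without CS cows 1 and 2. It called 1 gene, lower in AH, with all 18 cows in the model. With 1 cow left out, the calls ranged from 0 to 1. DESeq2 called 8 genes, 1 higher in AH and 7 lower, and edgeR's exact test, under a common dispersion, 96, with 48 each way. The labels do not say that the replicate numbers pair cows. The deviations of same-numbered cows correlated by 0.17 to 0.33 in 5 pairs and by -0.41 in pair 4, and 1 of 6 AH cows correlated best with the CS cow of its own number, so the numbers were not used as pairs. With the block, 252 genes had an unadjusted p under 0.05.

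The genes at an unadjusted p under 0.05 numbered 400 without a filter (264 higher in AH, 136 lower), 377 with DESeq2 (232 higher, 145 lower) and 556 with the common dispersion (325 higher, 231 lower). Those lower in AH numbered 105 with TMM, 104 with median-ratio scaling and 110 with the quasi-likelihood test. Without CS cows 1 and 2, chosen after seeing the data, there were 1122 (954 lower), and with TMM 930 (408 higher, 522 lower). With 1 cow left out, the counts ran from 169 to 301, those higher from 105 to 243 and those lower from 49 to 139. Genes whose cows did not overlap numbered 216 without CS cows 1 and 2 (43 higher, 173 lower), where fewer cows make separation easier, and 10 were lower with median-ratio scaling. With 1 cow left out they numbered 19 to 34, of which 13 to 24 were higher and 5 to 14 lower.

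Of 50 genes with values, 36 kept their sign in all alternatives run. Without CS cows 1 and 2, with TMM as well, and by the ratio of medians, ZFAND2A had log2 ratios of 1.32, 1.40 and 0.30, BAG3 0.60, 0.61 and 0.41, HSPH1 0.078, 0.036 and 0.32, HSPB8 0.56, 0.60 and 0.17, HSPA1A 0.76, 0.87 and 0.43, and CD5L -0.41, -0.27 and -2.42. By the ratio of medians KRT36 had 0.15, C7 -0.27, C3 -0.57, Cd209f -0.59 and CR2 -1.41. With voom HSPA1A had 0.037, CD5L -2.22, C3 -0.18 and CR2 -0.53, and by the limma coefficient 0.11, -1.16, -0.20 and -0.18. With 1 cow left out, the log2 ratio ranged from -2.48 to 1.18 for ZFAND2A, from -1.80 to 0.53 for BAG3, from -1.23 to 0.062 for HSPH1, from -1.31 to 0.45 for HSPB8, from -0.48 to 1.47 for C7, from -0.72 to 1.85 for SCARA5, from -0.33 to 2.03 for GFPT2, from -0.73 to 0.70 for HSPA1A, from -3.24 to 0.72 for CD5L, from -0.62 to 1.91 for HLA-DQA1, from -0.71 to 0.89 for C3, from -1.0 to 1.47 for Cd209f and from -1.62 to 1.58 for CR2.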

Other observations

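Gene groups of the rumen wall that the comparison above did not take up held few members with a paired identifier. Of the 223 symbols in the 26 lists, 73 (32.7%) could be paired with an identifier, and 10 lists had none paired, among them volatile fatty acid transport, ketogenesis, cholesterol synthesis, cell cycle and tight junctions. What these pathways did in the papillae was not tested here.

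The B lineage genes CR2 and IGLL1 were highest in AH cow 3 and lowest in AH cow 4. CR2, a complement receptor of B cells, ran from 0.0459 to 75.7 CPM in AH and from 0.221 to 14.8 CPM in CS, and its log2 ratio went from 1.15 to -1.62 without AH cow 3. ENPEP, an aminopeptidase, ran from 3.38 to 13.7 CPM in AH and from 1.37 to 5.73 CPM in CS, with an exact permutation p of 0.0519.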
